A study of Mus musculus with 15 samples.

Results

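The 34 genes of glycolysis and the pentose phosphate pathway were compared gene by gene and as a sum over 5 sorted mononuclear phagocyte subtypes of the mouse, each with 3 libraries. They were taken by name: 3 glucose transporters, 3 hexokinases, 5 phosphofructokinases and their regulators, 10 other glycolytic enzymes, 6 genes of lactate, pyruvate entry and hypoxia sensing, and 7 pentose phosphate enzymes. All 34 symbols matched 1 of the 38924 gene identifiers in the count table, and all 34 were among the 14456 genes tested. Cell types are named below by surface marker, with CD8+, CD4+ and Ly6C+ cells always from spleen and CD103+ and CD11b+ cells always from LN. The spleen gave CD8+ dendritic cells (DCs) of the DC1 lineage, CD4+ DCs of the DC2 lineage and Ly6C+ monocytes. From lung-draining lymph nodes (LNs) came DC1 cells sorted as CD103+ and DC2 cells sorted as CD11b+. Every animal was a naïve female wild-type C57BL/6 mouse, 6 to 8 weeks old by the labels, with no treatment or transgene, and a replicate is a pool of cells from several mice. The LN and spleen cohorts were not the same mice, and the gate for LN DCs asked for high MHC class II, so organ, cohort and gate cannot be told apart.

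Glycolysis splits glucose into pyruvate in the cytosol, yields a little ATP on the way, and ends in lactate when pyruvate is not sent to the mitochondria. The pentose phosphate pathway leaves glycolysis after the hexokinase step. Its oxidative arm makes NADPH, which phagocytes spend on the respiratory burst and on lipid synthesis, and its other arm makes ribose for nucleotides and returns sugars to glycolysis. Most steps can be run by several isoenzymes encoded by separate genes, and DCs and monocytes are known to change their use of glucose when they are activated.

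Libraries held 4531243 to 10233914 counts on genes (median 7331110). Defining markers mostly followed the labels. A list of 7 general DC markers, led by Cd74, was lowest in monocytes, at 8068 to 10533 CPM, but also differed between the organs. It summed to 79875 to 102085 CPM in CD8+ DCs and 61162 to 125900 CPM in CD4+ DCs. In the LN it summed to 15290 to 24867 CPM in CD103+ DCs and 32297 to 65426 CPM in CD11b+ DCs. The list of 8 DC1 markers (Xcr1, Clec9a, Irf8 and others) summed to 3952 to 6228 CPM (counts scaled to the size of the library) in CD8+ DCs and 815 to 1155 CPM in CD103+ DCs, against 141 to 171 CPM in CD4+ DCs, 305 to 458 CPM in CD11b+ DCs and 480 to 598 CPM in monocytes, there mostly Irf8. The list of 7 DC2 markers, led by Sirpa, did not set DC2 apart from monocytes. It summed to 1582 to 2673 CPM in CD4+ DCs and 843 to 944 CPM in CD11b+ DCs, against at most 185 CPM in DC1 cells but 2323 to 2635 CPM in monocytes. The 5 markers of LN DCs (Ccr7, Fscn1 and others) summed to 7797 to 16591 CPM in LN DCs against 237 to 688 CPM in splenic DCs. The 9 monocyte markers summed to 8610 to 9576 CPM in monocytes, 736 to 1112 CPM in CD4+ DCs and 673 to 812 CPM in CD11b+ DCs. Markers of other cells moved with some comparisons. A list of 9 T cell genes summed to 87.2 to 164 CPM in LN DCs and 3.91 to 21.2 CPM in splenic DCs, with Lck the most abundant at 49.2 CPM in CD103+ DCs. A list of 11 neutrophil genes summed to 587 to 737 CPM in monocytes and at most 33.2 CPM in DCs, led by Csf3r. The 10 macrophage genes summed to 1113 to 1401 CPM in CD4+ DCs, led by Adgre1, and to 664 to 975 CPM in CD11b+ DCs. They summed to 459 to 522 CPM in monocytes and 187 to 299 CPM in DC1 cells. All 15 cell-cycle genes of a fixed list were lower in LN DCs than in splenic DCs of either lineage and lower in monocytes than in splenic DCs. Of all genes tested, 21.8% were lower in the DC1 organ comparison, 13.8% in that of DC2 and 24.0% in monocytes. The summed level of the 15 genes was 1176 to 2000 CPM in splenic DCs, 232 to 437 CPM in LN DCs and 155 to 163 CPM in monocytes. A list of 7 erythroid genes summed to 28.7 to 238 CPM in splenic DCs and 1.82 to 58.4 CPM in LN DCs, and 8 B cell genes, mostly Ighm, to 179 to 562 CPM in every subtype. A list of 7 plasmacytoid DC genes did not set DCs apart from monocytes, at 97.9 to 278 CPM in DCs and 158 to 192 CPM in monocytes. The part of these signals in the differences below was not tested. In bulk RNA, fewer cells of a type and less RNA per cell cannot be told apart.

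Monocytes carried the most RNA for these pathways. The sum of the deposited TPM (transcript abundance scaled to gene length and library total, which lets genes be added) over the 34 genes was 5075, 5037 and 5497 in the 3 monocyte libraries. It was 3086, 3184 and 3792 in CD8+ DCs and 2559, 2317 and 2595 in CD4+ DCs. In the LN it was 2947, 2904 and 3010.5 in CD103+ DCs and 2685, 2426 and 2644 in CD11b+ DCs. Each monocyte library stood above each of the 12 DC libraries, and the 4 DC subtypes lay between 2490.0 ± 151 and 3354 ± 382 (mean ± SD, n = 3) against 5203 ± 255 in monocytes. Relative to the mean of all libraries, CD103+ DCs lay at 0.890 by summed TPM and at 1.12 by summed CPM, so their side of the mean depended on the scale. By the mean of log2 CPM after centring each gene, which gives every gene the same weight, CD103+ DCs lay at -0.22 ± 0.05, below CD11b+ DCs at -0.13 ± 0.11, whereas by summed TPM they lay above them. The sums are descriptions and were not tested, because the genes were chosen with earlier results known.

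**Figure D1:**
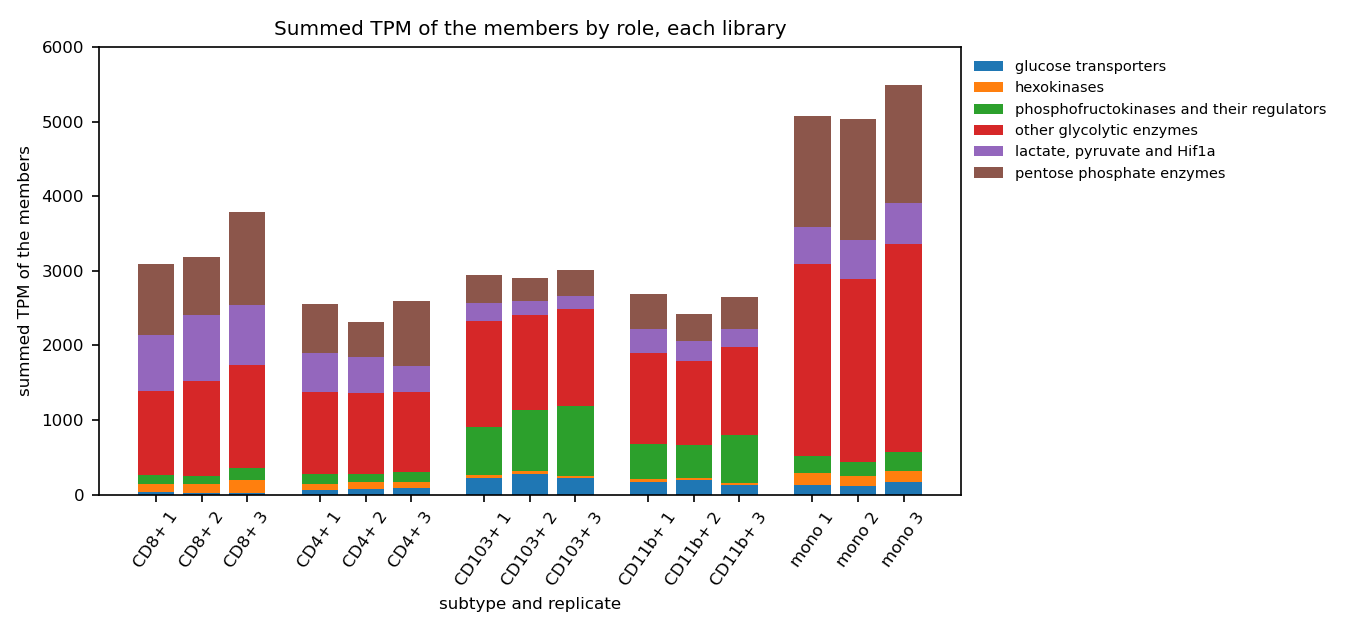
Summed TPM of the 34 genes in each of the 15 libraries, stacked by role; the horizontal axis gives subtype and replicate. Monocyte bars end between 5037 and 5497, above all DC bars, and the phosphofructokinase band is widest in the LN DCs.

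The composition of that sum differed between subtypes. Phosphofructokinases and their regulators gave 799 ± 148 TPM in CD103+ DCs and 511 ± 111 TPM in CD11b+ DCs, against 133 ± 33.3, 121 ± 12.7 and 221 ± 25.2 TPM in CD8+ DCs, CD4+ DCs and monocytes. Most of that band was a single gene: Pfkfb3 alone made up 25.0% ± 4.85 of the summed TPM in CD103+ DCs and 1.40% ± 0.175 in CD8+ DCs. Hexokinases ran the other way, at 33.5 ± 2.60 and 37.3 ± 6.38 TPM in the LN DC subtypes, 132 ± 33.8 and 82.2 ± 10.8 TPM in CD8+ and CD4+ DCs, and 150.2 ± 14.2 TPM in monocytes. Pentose phosphate enzymes summed to 1564 ± 69.8 TPM in monocytes and to 341 ± 35.9 TPM in CD103+ DCs. Over the genes one by one, monocytes held the highest mean for 16 of the 34, CD8+ DCs for 9, CD103+ DCs for 5 and CD4+ DCs for 4, and CD11b+ DCs for 0. The lowest mean fell in CD103+ DCs for 12 genes and in CD4+ DCs for 10.

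**Figure D2:**
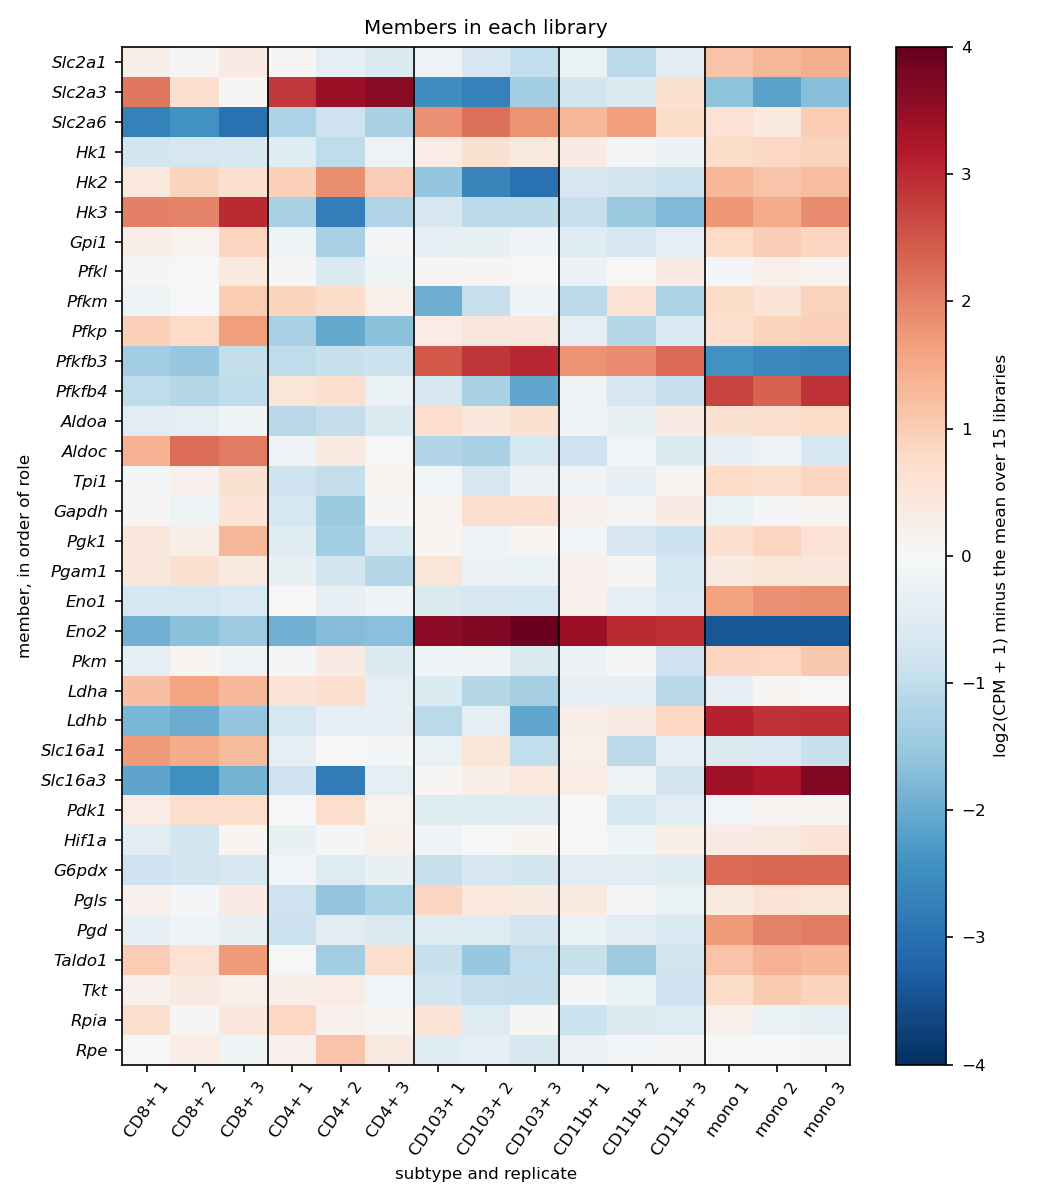
Log2(CPM + 1) of each gene minus its mean over the 15 libraries, with genes in the order of their role from top to bottom and libraries in columns. Eno2 and Pfkfb3 are red in all 6 LN DC libraries, and G6pdx, Pgd, Ldhb and Slc16a3 are red in the 3 monocyte libraries.

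Of the 34 genes, 31 differed over the 5 subtypes (edgeR quasi-likelihood test, adjusted p under 0.05), where 73.5% of all genes tested did. The exceptions were Pfkl, Pfkm and Rpia, and the last 2 had few counts. Between CD103+ and CD8+ DCs, 7 of the 34 genes were higher in the LN, where 23.8% of all genes tested were, and 12 were lower, where 21.8% were. The median log2 fold change of the 34 was -0.41 beside 0.00 over all genes. Between CD11b+ and CD4+ DCs, 8 were higher beside 19.3% of all genes and 8 were lower beside 13.8%, with a median of 0.01 beside 0.05. These organ comparisons have no library in common, but they share the estimate of the spread. Same-numbered libraries of the lineages also deviated together within each organ, so the comparisons are not independent. In both, 12 genes passed, which is 63.2% of those called in DC1 and 75% of those called in DC2, beside 53.8% and 74.2% for all genes tested. Slc2a6, Hk1, Pfkfb3, Aldoa, Eno2 and Ldhb were higher in LN DCs of both lineages, Slc2a3, Hk2, Ldha, Pdk1 and Taldo1 were lower in both, and Pfkp was lower in DC1 and higher in DC2. Some of these calls lay close to the threshold. Of 22 alternative settings, among them the omission of each of the 15 libraries, the DC2 call was lost in 15 for Ldhb, 14 for Hk1, 11 for Taldo1, 4 for Pdk1 and 3 for Ldha, and the DC1 call in 5 for Ldhb and 2 for Pfkp. Without replicate 2 of CD4+ DCs, 10 genes passed in the DC2 comparison in place of 16, and Hk1, Ldha, Ldhb, Pdk1, Pfkfb4 and Rpe were lost.

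**Figure D3:**
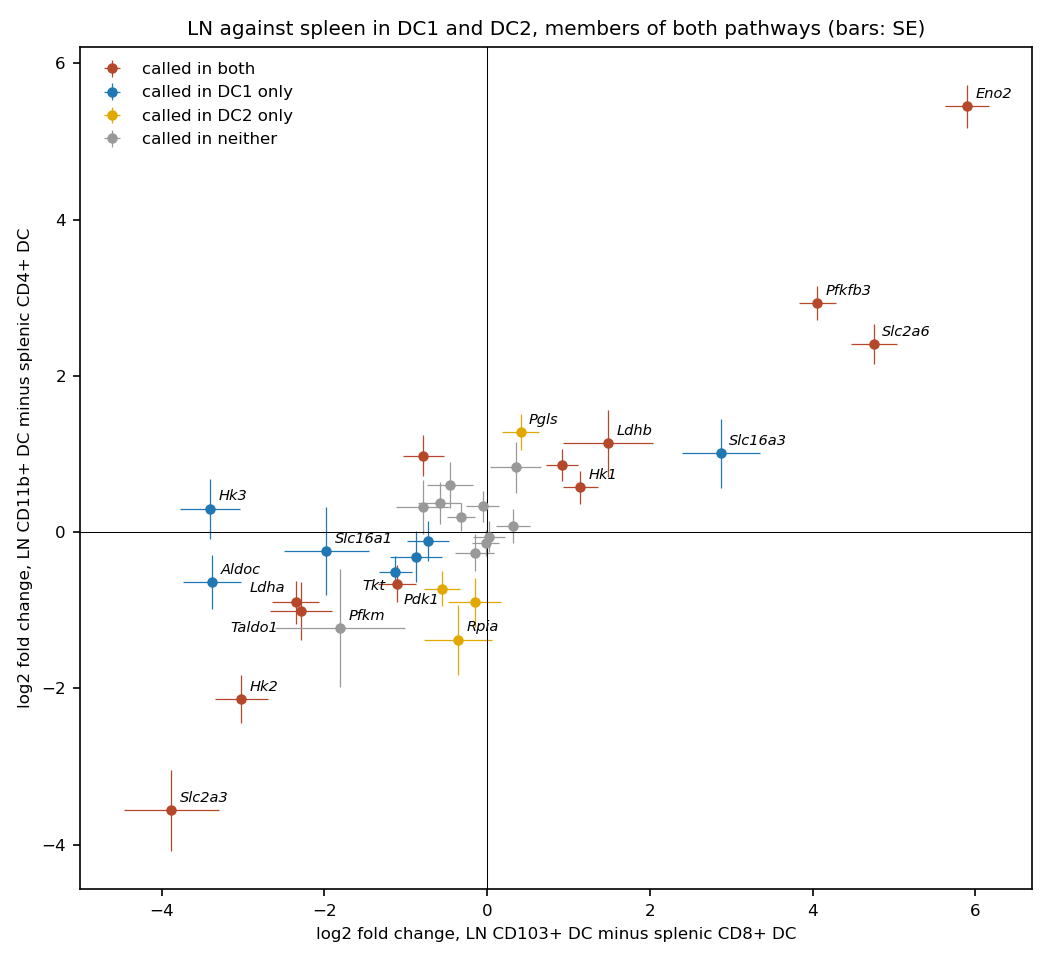
Log2 fold change of LN over splenic DCs in DC1 (horizontal axis) and in DC2 (vertical axis) for the 34 genes, with standard errors as bars and colour for the comparisons in which a gene passed. Eno2, Pfkfb3 and Slc2a6 lie far to the upper right, Slc2a3 and Hk2 to the lower left, and Hk3 and Aldoc lie low on the DC1 axis and close to 0 on the DC2 axis.

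Within an organ, 18 genes passed between the lineages in spleen and 6 in the LN. Between CD8+ and CD4+ DCs, 12 of the 34 genes were higher in CD8+ DCs beside 13.1% of all genes tested, and 6 were lower beside 14.4%, with a median log2 fold change of 0.23 beside 0.00. Between CD103+ and CD11b+ DCs, 3 were higher beside 5.22% of all genes, and 3 were lower beside 7.73%. Without replicate 2 of CD103+ DCs this LN comparison called 3 genes, and Aldoa, Pfkfb3 and Slc2a3 were lost. Against the mean of both splenic DC subtypes, 19 of the 34 genes were higher in monocytes beside 24.3% of all genes, and 6 were lower beside 24.0%, with a median of 0.73 beside -0.02. The organ effect differed between the lineages (interaction test) for 6 genes: 2 had a larger log2 fold change in DC1 beside 5.17% of all genes, and 4 a smaller one beside 6.03%. With the replicate number as a replicate block, 10 genes passed the interaction test, and Pgam1, Pgls, Taldo1 and Tpi1 were added.

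The sequence upstream of 5 genes that passed the organ comparison in both lineages is shown, 3 higher and 2 lower in LN DCs, because several glycolytic genes are textbook targets of the hypoxia-inducible factor HIF, whose core motif is ACGTG or GCGTG. The E-box CACGTG, which Myc and related factors bind, contains the first of these on both strands. The 250 bases before the RefSeq start (build GRCm38.p6) are printed 5′ to 3′ on the strand of the gene, with core motifs on either strand in capitals. Slc2a6 (chr2:27027999-27028248, minus strand), Pfkfb3 (chr2:11502091-11502340, minus strand) and Eno2 (chr6:124769674-124769923, minus strand) are the higher genes, and Hk2 (chr6:82774455-82774704, minus strand) and Ldha (chr7:46845554-46845803, plus strand) the lower ones.
Slc2a6: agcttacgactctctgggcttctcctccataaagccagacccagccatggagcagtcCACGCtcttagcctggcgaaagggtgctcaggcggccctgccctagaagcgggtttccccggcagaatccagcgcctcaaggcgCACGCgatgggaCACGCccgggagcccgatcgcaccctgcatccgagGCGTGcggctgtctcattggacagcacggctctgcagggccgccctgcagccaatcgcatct
Pfkfb3: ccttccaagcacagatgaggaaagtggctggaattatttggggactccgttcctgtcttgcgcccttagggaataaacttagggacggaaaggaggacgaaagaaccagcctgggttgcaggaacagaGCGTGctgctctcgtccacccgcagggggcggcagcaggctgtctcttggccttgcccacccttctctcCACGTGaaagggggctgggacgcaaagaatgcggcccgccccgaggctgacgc
Eno2: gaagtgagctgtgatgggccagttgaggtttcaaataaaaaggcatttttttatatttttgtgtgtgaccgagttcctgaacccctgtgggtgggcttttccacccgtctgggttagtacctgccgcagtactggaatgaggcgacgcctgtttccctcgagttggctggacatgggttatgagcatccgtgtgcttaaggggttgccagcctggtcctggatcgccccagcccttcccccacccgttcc
Hk2: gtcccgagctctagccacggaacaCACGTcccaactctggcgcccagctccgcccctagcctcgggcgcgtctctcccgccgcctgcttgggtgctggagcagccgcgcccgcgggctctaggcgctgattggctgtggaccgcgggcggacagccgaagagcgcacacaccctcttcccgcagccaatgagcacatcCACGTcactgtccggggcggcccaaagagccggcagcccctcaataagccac
Ldha: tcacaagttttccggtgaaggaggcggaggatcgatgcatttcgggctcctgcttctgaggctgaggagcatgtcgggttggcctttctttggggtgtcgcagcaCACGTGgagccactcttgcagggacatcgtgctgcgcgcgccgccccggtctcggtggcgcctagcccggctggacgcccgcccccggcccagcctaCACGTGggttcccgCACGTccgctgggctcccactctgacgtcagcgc
Of the 5 genes shown, Slc2a6 and Pfkfb3 among the higher and both of the lower genes held the motif. Eno2, with the largest LN to spleen differences of the 34 genes, did not hold these letters in this window. Among the genes not shown that passed in both lineages, Hk1 and Aldoa, higher in LN DCs, also held 0 matches. Ldhb, higher, and Pdk1 and Taldo1, lower, held 1 each. Pfkp, with opposite effects, held 3, and no promoter was found for Slc2a3. Slc2a6 held 4 matches, Pfkfb3 3, Hk2 2 and Ldha 5, counting both strands, and in Pfkfb3 and Ldha some of them overlap within an E-box. RefSeq promoters were found for 33 of the 34 genes, of which 26 (78.8%) held the motif, beside 56.1% of the promoters of 10179 genes tested and 38.6% of all 27025 promoters. The E-box was found in 5 of the 33 (15.2%), beside 8.30% of the promoters of tested genes and 6.05% of all promoters. A match describes the letters and does not show a binding site. The RefSeq start of Ldha lies 4329 bases from the start of the counted gene.

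Glucose enters through transporters of the Slc2a family, and their makeup differed between organs. Slc2a6 (GLUT6, a transporter of intracellular membranes; ENSMUSG00000036067, chr2:27021363-27027998, minus strand, build mm10 as for all positions here) measured 313, 402 and 307 CPM in CD103+ DCs and 215, 273 and 144 CPM in CD11b+ DCs. It measured 12.4, 15.4 and 10.2 CPM in CD8+ DCs, 36.2, 48.5 and 35.1 CPM in CD4+ DCs and 131, 116 and 177 CPM in monocytes. LN DC and monocyte libraries were all above the splenic DC libraries, and the CD4+ libraries all above the CD8+ libraries. The mean was 26.9-fold higher in CD103+ than in CD8+ DCs and 5.28-fold higher in CD11b+ than in CD4+ DCs, with log2 fold changes of 4.75 (SE 0.28, adjusted p = 4.06e-10) and 2.4 (SE 0.25, adjusted p = 7.66e-07). The organ effect was larger in DC1 by 2.35 (SE 0.35, adjusted p = 2.19e-04) on the log2 scale. Slc2a6 was lower in CD8+ than in CD4+ DCs, at -1.66 (SE 0.26, adjusted p = 9.85e-05), and higher in monocytes than in splenic DCs, at 2.65 (SE 0.20, adjusted p = 4.12e-09).

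Slc2a3 (GLUT3, a high-affinity transporter of the plasma membrane; ENSMUSG00000003153, chr6:122727809-122801640, minus strand) was lower in LN DCs of both lineages. It measured 89.5, 133 and 152 CPM in CD4+ DCs, 53.6, 19.3 and 11.9 CPM in CD8+ DCs and 3.14, 1.85 and 2.89 CPM in monocytes. CD103+ DCs held 1.25, 0.935 and 3.81 CPM and CD11b+ DCs 6.66, 7.62 and 18.3 CPM. The CD4+ libraries were above all others, and replicate 1 of CD8+ DCs stood far above replicates 2 and 3. Log2 fold changes were -3.88 (SE 0.59, adjusted p = 2.57e-05) for CD103+ over CD8+ DCs and -3.56 (SE 0.52, adjusted p = 3.02e-05) for CD11b+ over CD4+ DCs. The gene was also lower in CD8+ than in CD4+ DCs (-2.14, adjusted p = 0.00252), in CD103+ than in CD11b+ DCs (-2.46, adjusted p = 0.00930) and in monocytes than in splenic DCs, at -4.53 (SE 0.55, adjusted p = 1.64e-06). The LN lineage difference missed the threshold without replicate 2 of CD103+ DCs (adjusted p = 0.0642) or replicate 3 of CD11b+ DCs (adjusted p = 0.0558).

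Slc2a1 (GLUT1, the widespread basal transporter; ENSMUSG00000028645, chr4:119108711-119137330, plus strand) was highest in monocytes. Its libraries held 10.5, 9.03 and 11.2 CPM in CD8+ DCs, 9.01, 6.64 and 5.49 CPM in CD4+ DCs, 7.53, 5.14 and 3.97 CPM in CD103+ DCs and 7.20, 3.66 and 6.18 CPM in CD11b+ DCs. Monocytes held 20.4, 23.8 and 26.0 CPM, above every DC library, with a log2 fold change over splenic DCs of 1.46 (SE 0.26, adjusted p = 1.13e-04). It was lower in CD103+ than in CD8+ DCs at -0.88 (SE 0.32, adjusted p = 0.0304), a call lost with no filter on low counts and without replicate 2 or 3 of CD103+ DCs or replicate 1 or 3 of CD8+ DCs.

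**Figure D4:**
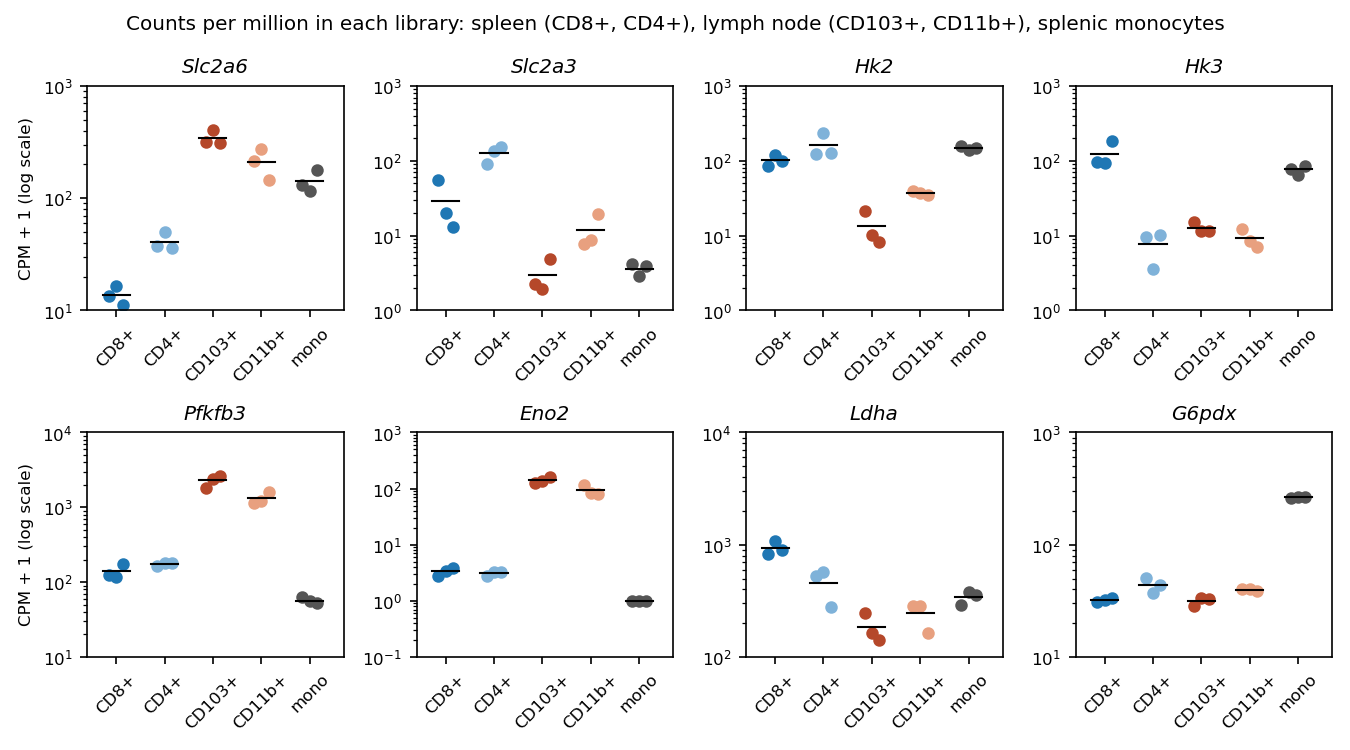
CPM + 1 on a log axis of 8 genes in each of the 15 libraries; points are libraries, black lines the means of 3, and colours the subtypes. LN DC points of Slc2a6, Pfkfb3 and Eno2 lie above all splenic DC points, those of Slc2a3 and Hk2 lie below the splenic points of their lineage, and G6pdx stands out in monocytes.

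Hexokinases commit glucose to the cell by phosphorylating it, and each of the 3 genes had its own distribution. Hk2 (the inducible hexokinase; ENSMUSG00000000628, chr6:82725025-82774454, minus strand) measured 85.1, 118 and 98.2 CPM in CD8+ DCs, 123, 232 and 126 CPM in CD4+ DCs and 159, 139 and 149 CPM in monocytes. CD103+ DCs held 20.6, 9.24 and 7.12 CPM and CD11b+ DCs 38.6, 36.6 and 33.8 CPM, each below every splenic library. It was 8.15-fold lower in CD103+ than in CD8+ DCs, with log2 fold changes of -3.02 (SE 0.33, adjusted p = 5.02e-07) in DC1 and -2.14 (SE 0.31, adjusted p = 2.92e-05) in DC2. Between the LN subtypes it was lower in CD103+ DCs, at -1.56 (SE 0.32, adjusted p = 0.00251).

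Hk1 (the constitutive hexokinase; ENSMUSG00000037012, chr10:62268855-62379908, minus strand) moved the other way. Its libraries held 73.6, 93.2 and 79.3 CPM in CD103+ DCs and 75.8, 58.0 and 51.4 CPM in CD11b+ DCs, beside 35.7, 37.5 and 38.2 CPM in CD8+ DCs and 43.1, 29.5 and 52.4 CPM in CD4+ DCs. Monocytes held 100.2, 107 and 112 CPM, above all DC libraries. LN and spleen did not overlap in DC1, at 1.14 (SE 0.21, adjusted p = 2.16e-04), and overlapped in 1 or more libraries in DC2, at 0.57 (SE 0.21, adjusted p = 0.0446). The DC2 call was lost in 11 of the 15 single-library omissions, among them replicate 1 or 2 of either subtype, and without replicate 2 of CD4+ DCs it was 0.38 (adjusted p = 0.177). The difference between monocytes and splenic DCs was 1.44 (SE 0.17, adjusted p = 1.65e-06).

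Hk3 (a hexokinase typical of myeloid cells; ENSMUSG00000025877, chr13:55005985-55021385, minus strand) was highest in CD8+ DCs. It measured 94.4, 91.9 and 184 CPM there and 77.8, 64.4 and 85.3 CPM in monocytes. The other subtypes were low, with 8.63, 2.56 and 9.15 CPM in CD4+ DCs, 14.1, 10.4 and 10.4 CPM in CD103+ DCs and 11.3, 7.47 and 5.96 CPM in CD11b+ DCs. It was 18.2-fold higher in CD8+ than in CD4+ DCs, at 4.17 (SE 0.39, adjusted p = 2.78e-07), and lower in CD103+ than in CD8+ DCs, at -3.41 (SE 0.37, adjusted p = 5.11e-07). The organ effect in DC2 was 0.30 (SE 0.38, adjusted p = 0.599) and the difference between the effects -3.71 (SE 0.52, adjusted p = 1.36e-04). Monocytes passed the test against the mean of splenic DCs (1.38, adjusted p = 5.77e-04), but lay below the CD8+ and above the CD4+ libraries.

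Phosphofructokinase is the main regulated step of glycolysis, and Pfkfb3 makes the sugar bisphosphate that activates it. Pfkfb3 (ENSMUSG00000026773, chr2:11471430-11502101, minus strand) was the most abundant of the 34 genes per length in CD103+ DCs, at 739 ± 149.9 TPM. It measured 1798, 2426 and 2661 CPM in CD103+ DCs and 1159, 1219 and 1586 CPM in CD11b+ DCs. Splenic CD8+ DCs held 125, 116 and 172 CPM, CD4+ DCs 163, 177 and 179.8 CPM and monocytes 61.5, 54.7 and 51.1 CPM. The 6 LN libraries were above all others and the 3 monocyte libraries below all others. CD103+ DCs were 16.7-fold above CD8+ DCs, at 4.06 (SE 0.23, adjusted p = 2.82e-10), and CD11b+ DCs 7.63-fold above CD4+ DCs, at 2.93 (SE 0.22, adjusted p = 1.51e-08). The effect was larger in DC1 by 1.13 (SE 0.29, adjusted p = 0.0160), and without replicate 2 of CD8+ DCs this difference missed the threshold (adjusted p = 0.0521). Between the LN subtypes Pfkfb3 was higher in CD103+ DCs, at 0.80 (SE 0.21, adjusted p = 0.0135), a call lost without replicate 2 or 3 of CD103+ DCs or replicate 1 or 2 of CD11b+ DCs. In monocytes Pfkfb3 was lower than in splenic DCs, at -1.47 (SE 0.19, adjusted p = 4.12e-06).

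Its paralogue Pfkfb4 (ENSMUSG00000025648, chr9:108991902-109032223, plus strand) was the more abundant of the pair in monocytes. Both enzymes can make and break down the activator. Monocytes held 199, 156 and 225 CPM, above every DC library. Splenic CD4+ DCs held 42.2, 47.0 and 24.6 CPM and CD8+ DCs 14.0, 12.9 and 14.1 CPM, and the LN subtypes 18.8, 11.6 and 6.29 CPM (CD103+) and 26.5, 18.7 and 15.2 CPM (CD11b+). The monocyte difference was 3.09 (SE 0.25, adjusted p = 1.05e-08), and CD8+ DCs lay below CD4+ DCs at -1.47 (SE 0.32, adjusted p = 0.00199). It was lower in CD11b+ than in CD4+ DCs with overlap, at -0.90 (SE 0.31, adjusted p = 0.0337), a call lost without replicate 2 or 3 of CD11b+ DCs or replicate 1 or 2 of CD4+ DCs.

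Of the enzyme subunits themselves, Pfkp (the platelet form; ENSMUSG00000021196, chr13:6579768-6648777, minus strand) varied and Pfkl and Pfkm did not pass. Pfkp held 138, 121 and 228 CPM in CD8+ DCs and 28.5, 16.4 and 22.0 CPM in CD4+ DCs, a 7.29-fold difference, at 2.86 (SE 0.27, adjusted p = 3.15e-07). CD103+ DCs held 87.7, 96.5 and 98.5 CPM, CD11b+ DCs 53.9, 31.8 and 46.3 CPM and monocytes 114, 133 and 139 CPM. In both organs DC1 libraries lay above DC2 libraries without overlap, and the LN difference was 1.10 (SE 0.25, adjusted p = 0.00638). The organ effect was -0.78 (SE 0.25, adjusted p = 0.0148) in DC1 and 0.98 (SE 0.26, adjusted p = 0.00674) in DC2, opposite in sign, and the interaction was -1.77 (SE 0.36, adjusted p = 0.00339). The DC1 call was lost without replicate 1 of CD103+ DCs or replicate 3 of CD8+ DCs, and without the latter the effect was -0.46 (adjusted p = 0.133). It was also higher in monocytes than in the mean of splenic DCs, at 1.09 (SE 0.21, adjusted p = 2.94e-04), with overlap. Pfkl (the liver form; ENSMUSG00000020277, chr10:77986947-78010083, minus strand) stayed between 36.5 and 72.5 CPM in all 15 libraries, and its largest fold change was in CD8+ over CD4+ DCs, at 0.40 (SE 0.20, adjusted p = 0.158). Pfkm (the muscle form; ENSMUSG00000033065, chr15:98092589-98132447, plus strand) held 2.39, 2.83 and 6.86 CPM in CD8+ DCs, 6.18, 5.45 and 3.49 CPM in CD4+ DCs, 5.50, 4.56 and 6.31 CPM in monocytes, 0, 1.05 and 2.48 CPM in CD103+ DCs and 0.859, 4.83 and 0.662 CPM in CD11b+ DCs, 393 counts in all. Its organ effects were -1.81 (SE 0.80, adjusted p = 0.0738) in DC1 and -1.23 (SE 0.76, adjusted p = 0.236) in DC2.

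Of the 10 genes from phosphoglucose isomerase to pyruvate kinase, 4 passed the organ comparison in DC1 (Aldoa and Eno2 higher, Gpi1 and Aldoc lower) and 2 in DC2 (Aldoa and Eno2, both higher). That is 40% beside 45.6% of all genes tested in DC1 and 20% beside 33.1% in DC2, smaller shares than over all genes. Aldoa (the main aldolase; ENSMUSG00000030695, chr7:126795234-126800751, minus strand) measured 693, 575 and 653 CPM in CD103+ DCs and 378, 345 and 535 CPM in CD11b+ DCs. It measured 309, 326 and 383 CPM in CD8+ DCs, 195, 218 and 281 CPM in CD4+ DCs and 655, 655 and 719 CPM in monocytes. LN and splenic libraries of a lineage did not overlap, with effects of 0.92 (SE 0.20, adjusted p = 9.67e-04) in DC1 and 0.86 (SE 0.20, adjusted p = 0.00259) in DC2, and monocytes were above splenic DCs at 1.27 (SE 0.17, adjusted p = 3.93e-06). Between the LN subtypes Aldoa was higher in CD103+ DCs at 0.61 (SE 0.20, adjusted p = 0.0492), a call at the edge of the threshold. It was lost with RLE size factors, with limma, with no filter, with only the subtypes compared and in 10 of the 15 single-library omissions, among them every CD103+ library and replicates 1 and 2 of CD11b+ DCs. Aldoc (the brain form; ENSMUSG00000017390, chr11:78322968-78327781, plus strand) measured 19.6, 36.1 and 32.7 CPM in CD8+ DCs and between 2.22 and 9.03 CPM in the other 12 libraries. It was lower in CD103+ DCs, at -3.38 (SE 0.36, adjusted p = 4.20e-07), with -0.64 in DC2 (adjusted p = 0.174) and an interaction of -2.74 (SE 0.49, adjusted p = 0.00125). It was higher in CD8+ than in CD4+ DCs, at 2.00 (SE 0.33, adjusted p = 1.91e-04), and lower in monocytes than in the mean of splenic DCs, at -1.55 (SE 0.31, adjusted p = 4.12e-04).

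Enolase, which makes phosphoenolpyruvate, gave the largest organ differences among the 34 genes. Eno2 (the neuronal form; ENSMUSG00000004267, chr6:124760053-124769673, minus strand) measured 127, 138 and 160.2 CPM in CD103+ DCs and 114, 83.8 and 79.2 CPM in CD11b+ DCs. Splenic CD8+ DCs held 1.79, 2.43 and 2.86 CPM, CD4+ DCs 1.80, 2.21 and 2.33 CPM, and the 3 monocyte libraries had 0 counts. LN DCs were thus 60.0-fold above splenic DCs in DC1, at 5.90 (SE 0.27, adjusted p = 1.29e-10), and 43.6-fold in DC2, at 5.45 (SE 0.27, adjusted p = 1.10e-09). Against a floor of 3 counts over the monocyte group, splenic DCs were at least 17.1-fold higher than monocytes (adjusted p = 3.12e-07). Eno1 (the widespread form; ENSMUSG00000063524, chr4:150236721-150248879, plus strand) measured 357, 418 and 429 CPM in monocytes and 71.2 to 134 CPM in the 12 DC libraries, and the monocyte difference was 2.19 (SE 0.16, adjusted p = 2.29e-09). Its organ effects, 0.02 (SE 0.20, adjusted p = 0.944) and -0.06 (SE 0.19, adjusted p = 0.859), did not pass. Reads that also fit elsewhere were not counted by the authors, and 49.5% of the 50-base stretches of Eno1 occur in another annotated gene, so reads within those stretches are missing from its level.

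Pkm (pyruvate kinase of most tissues; ENSMUSG00000032294, chr9:59656368-59679375, plus strand) was the most abundant of the 34 in monocytes, at 1389.6 ± 133 TPM. It measured 1342, 1306 and 1543 CPM there and 418 to 929 CPM in the DC libraries, without overlap, at 1.02 (SE 0.20, adjusted p = 3.76e-04). Gpi1 (phosphoglucose isomerase), Tpi1 (triosephosphate isomerase), Pgk1 and Pgam1 (phosphoglycerate kinase and mutase) were each higher in CD8+ than in CD4+ DCs. Pgk1 (ENSMUSG00000062070, chrX:106187100-106203699, plus strand) held 16.8, 14.3 and 31.3 CPM in CD8+ and 8.24, 3.92 and 7.48 CPM in CD4+ DCs, at 1.66 (SE 0.34, adjusted p = 0.00131). Pgam1 (ENSMUSG00000011752, chr19:41911871-41918664, plus strand) held 25.6, 28.2 and 23.6 and 14.8, 10.6 and 7.82 CPM, at 1.21 (SE 0.29, adjusted p = 0.00468). Gpi1 (ENSMUSG00000036427, chr7:34202122-34230289, minus strand) held 233, 217 and 352 CPM in CD8+ DCs, 174, 78.9 and 189 CPM in CD4+ DCs, 151, 161 and 174 CPM in CD103+ DCs, 138, 122 and 148 CPM in CD11b+ DCs and 341, 390.4 and 355 CPM in monocytes, and was lower in CD103+ than in CD8+ DCs, at -0.72 (SE 0.26, adjusted p = 0.0278), a call lost with limma and without any 1 of the CD103+ libraries or replicate 3 of CD8+ DCs, where it was -0.47 (adjusted p = 0.165). Tpi1 (ENSMUSG00000023456, chr6:124810586-124814296, minus strand) held 48.8, 57.6 and 78.6 CPM in CD8+ DCs, 28.8, 26.2 and 55.4 CPM in CD4+ DCs and 90.4, 83.5 and 93.2 CPM in monocytes. Between CD8+ and CD4+ DCs, Gpi1 (0.86, adjusted p = 0.0187), Tpi1 (0.75, adjusted p = 0.0423) and Aldoa (0.55, adjusted p = 0.0450) had smaller fold changes. Without replicate 3 of CD8+ DCs, 12 genes passed between CD8+ and CD4+ DCs in place of 18, and these 3 were lost with G6pdx, Slc16a3 and Taldo1. Over the 22 alternatives the call was lost in 16 for Aldoa, 12 for Tpi1 and 4 for Gpi1. Without replicate 2 of CD4+ DCs Gpi1 was at 0.55 (adjusted p = 0.0682), and without replicate 3 of CD4+ DCs Tpi1 was at 1.16 (adjusted p = 0.00190). Gpi1, Tpi1 and Pgk1 were also higher in monocytes than in the mean of both splenic DC subtypes, at 0.87, 0.90 and 0.76 (adjusted p = 0.00273, 0.00229 and 0.0306). For Gpi1, replicate 3 of CD8+ DCs (352 CPM) lay within the range of the monocyte libraries. For Pgk1, monocyte and CD8+ libraries overlapped by TPM. The monocyte call of Pgk1 was lost with only the subtypes compared and without any 1 of the monocyte libraries, replicate 1 or 2 of CD8+ DCs or replicate 2 of CD4+ DCs.

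Gapdh (ENSMUSG00000057666, chr6:125161853-125166467, minus strand), often taken as a constant reference, was counted at 5.62 to 27.6 CPM and passed none of the 6 comparisons of subtypes. It shares 58.4% of its 50-base stretches with other genes, among them 213 annotated pseudogenes, and Pgk1 shares 68.0% and Pgam1 41.5%, so that reads within those stretches were left out as not unique. Levels of these genes cannot be set against those of others. Over whole libraries, alignments set aside as not unique made up 22.5% to 22.8% in CD8+ DCs and 20.6% to 21.3% in CD4+ DCs. They made up 16.5% to 18.5% in CD103+ DCs, 17.2% to 18.0% in CD11b+ DCs and 15.8% to 17.8% in monocytes. Whether the share left out of these genes differed between subtypes was not tested. Under the replicate block, Gapdh passed in CD8+ against CD4+ DCs and in CD11b+ against CD4+ DCs.

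Lactate dehydrogenase turns pyruvate into lactate, with Ldha the form that favours lactate and Ldhb the heart form. Ldha (ENSMUSG00000063229, chr7:46841475-46855627, plus strand) measured 829, 1073 and 899 CPM in CD8+ DCs and 520.5, 571 and 276 CPM in CD4+ DCs. It measured 245, 161 and 141 CPM in CD103+ DCs, 286, 282 and 163 CPM in CD11b+ DCs and 287, 380.5 and 358 CPM in monocytes. The CD8+ libraries were above all others. CD103+ DCs were 5.12-fold below CD8+ DCs, at -2.35 (SE 0.29, adjusted p = 2.47e-06). In DC2 the organs overlapped, at -0.90 (SE 0.28, adjusted p = 0.0178), a call lost without replicate 3 of CD11b+ DCs or replicate 1 or 2 of CD4+ DCs, and the interaction was -1.45 (SE 0.39, adjusted p = 0.0212). CD8+ DCs were above CD4+ DCs at 1.03 (SE 0.28, adjusted p = 0.00964), and monocytes below the mean of splenic DCs at -0.93 (SE 0.25, adjusted p = 0.00466), overlapping the CD4+ libraries. The interaction missed the threshold without either replicate 2 or 3 of CD103+ DCs (adjusted p = 0.0618 and 0.0624) and without either replicate 1 or 2 of CD11b+ DCs (adjusted p = 0.0602 and 0.0511).

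Ldhb (ENSMUSG00000030246, chr6:142490249-142507957, minus strand) was highest in monocytes. It measured 46.2, 40.2 and 41.7 CPM in monocytes, 5.69, 6.00 and 9.05 CPM in CD11b+ DCs and 2.45, 3.41 and 3.49 CPM in CD4+ DCs. DC1 cells held the least, with 1.67, 3.27 and 0.331 CPM in CD103+ DCs and 0.597, 0.404 and 0.915 CPM in CD8+ DCs. The monocyte libraries were above all DC libraries, at 4.89 (SE 0.36, adjusted p = 2.08e-09). In both organs DC1 lay below DC2, at -2.23 (SE 0.53, adjusted p = 0.00434) in spleen and -1.88 (SE 0.45, adjusted p = 0.00771) in LN. The organ effect was 1.48 (SE 0.55, adjusted p = 0.0353) in DC1, where the libraries overlapped and the call was lost with limma and without replicate 1 or 2 of either subtype. Without replicate 2 of CD103+ DCs it was 0.67 (adjusted p = 0.397), and with only the subtypes compared the gene had too few counts to be tested. In DC2 it was 1.14 (SE 0.43, adjusted p = 0.0490), which missed the threshold in 15 of the 22 alternatives and without any 1 library of either subtype.

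Lactate crosses the membrane through the Slc16a transporters. Slc16a3 (MCT4, which exports lactate; ENSMUSG00000025161, chr11:120948480-120960868, plus strand) measured 136, 120.0 and 166 CPM in monocytes, 12.5, 14.7 and 16.5 CPM in CD103+ DCs and 14.9, 10.4 and 6.84 CPM in CD11b+ DCs. Splenic CD4+ DCs held 6.31, 0.852 and 8.98 CPM and CD8+ DCs 2.03, 1.35 and 2.52 CPM. Monocytes were above all DC libraries, at 5.42 (SE 0.36, adjusted p = 6.64e-10). The organ effect was 2.87 (SE 0.48, adjusted p = 7.84e-05) in DC1 and 1.01 (SE 0.44, adjusted p = 0.0895) in DC2, where replicate 2 of CD4+ DCs lay far below the others. In spleen CD8+ DCs were below CD4+ DCs with overlap, at -1.44 (SE 0.51, adjusted p = 0.0403), a call lost in 8 of the 22 alternatives, among them the omission of any 1 CD8+ library or of replicate 1 or 3 of CD4+ DCs (-0.92 without the latter, adjusted p = 0.206). Slc16a1 (MCT1, the widespread lactate transporter; ENSMUSG00000032902, chr3:104638668-104658462, plus strand) was highest in CD8+ DCs, at 10.6, 9.03 and 7.66 CPM, and held 0.732 to 3.98 CPM in the other 12 libraries. It was lower in CD103+ than in CD8+ DCs, at -1.98 (SE 0.52, adjusted p = 0.00462), higher in CD8+ than in CD4+ DCs, at 2.00 (SE 0.53, adjusted p = 0.00888), and lower in monocytes, at -1.89 (SE 0.52, adjusted p = 0.00543).

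Pdk1, the kinase that keeps pyruvate out of the mitochondria (ENSMUSG00000006494, chr2:71873224-71903858, plus strand), measured 50.9, 68.2 and 68.1 CPM in CD8+ DCs and 29.0, 29.5 and 28.5 CPM in CD103+ DCs. The effect was -1.11 (SE 0.23, adjusted p = 7.33e-04) in DC1 and -0.66 (SE 0.23, adjusted p = 0.0359) in DC2, where 40.4, 68.3 and 45.1 CPM in CD4+ DCs overlapped 41.7, 24.8 and 30.4 CPM in CD11b+ DCs. The DC2 call was lost with only the subtypes compared and without replicate 2 or 3 of CD11b+ DCs or replicate 2 of CD4+ DCs, where it was -0.40 (adjusted p = 0.204). Hif1a, the oxygen-regulated subunit of HIF (ENSMUSG00000021109, chr12:73901375-73947530, plus strand), ranged from 75.6 to 189 CPM over the 15 libraries. Its transcript passed in neither organ comparison, at 0.32 (SE 0.21, adjusted p = 0.237) and 0.08 (SE 0.21, adjusted p = 0.820), and was higher in monocytes (161, 164 and 189 CPM) than in splenic DCs, at 0.60 (SE 0.18, adjusted p = 0.00967), which missed the threshold without replicate 3 of monocytes.

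In the pentose phosphate pathway, both dehydrogenases of the oxidative arm set monocytes apart. G6pdx (glucose-6-phosphate dehydrogenase, its entry enzyme; ENSMUSG00000031400, chrX:74409483-74429194, minus strand) measured 261, 263 and 265 CPM in monocytes. It measured 29.6, 31.1 and 32.6 CPM in CD8+ DCs, 49.2, 36.5 and 42.6 CPM in CD4+ DCs, 27.7, 32.7 and 31.6 CPM in CD103+ DCs and 39.0, 39.5 and 37.5 CPM in CD11b+ DCs. Every monocyte library was far above every DC library, and the monocyte difference was 2.85 (SE 0.14, adjusted p = 7.61e-12). CD8+ DCs were below CD4+ DCs at -0.46 (SE 0.17, adjusted p = 0.0480), a call lost in 13 of the 15 single-library omissions, among them any 1 CD8+ library and replicate 1 or 3 of CD4+ DCs. Pgd (6-phosphogluconate dehydrogenase, which makes further NADPH; ENSMUSG00000028961, chr4:149149991-149166771, minus strand) measured 403, 489 and 516 CPM in monocytes and 67.7 to 109.6 CPM in the 12 DC libraries, at 2.38 (SE 0.15, adjusted p = 1.95e-10). Neither passed an organ comparison. Pgls (the lactonase between them; ENSMUSG00000031807, chr8:71592176-71601092, plus strand) was lowest in CD4+ DCs, at 26.7, 15.5 and 19.5 CPM. It measured 54.4, 45.8 and 59.7 CPM in CD8+ DCs, 63.6, 46.4 and 39.9 CPM in CD11b+ DCs, 86.7, 64.1 and 61.9 CPM in CD103+ DCs and 63.5, 71.9 and 66.9 CPM in monocytes. The differences were 1.28 (SE 0.24, adjusted p = 3.21e-04) for CD11b+ over CD4+ DCs, 1.37 (SE 0.23, adjusted p = 2.55e-04) for CD8+ over CD4+ DCs and 1.02 (SE 0.19, adjusted p = 2.26e-04) for monocytes over splenic DCs. Exons of Pgls overlap those of Fam129c over 20.6% of their length, and reads there counted for both genes.

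Of all 7 pentose phosphate genes, 0 were higher and 2 lower in the LN in DC1, together 28.6% beside 45.6% of all genes tested. In DC2 1 was higher and 3 were lower, together 57.1% beside 33.1%. The lower genes belong to the non-oxidative arm, which exchanges carbon between pentoses and glycolysis. They were Taldo1 in both lineages, Tkt in DC1, and Rpia and Rpe in DC2. Omission of single libraries could undo each of the DC2 calls of Taldo1, Rpia and Rpe. Taldo1 (transaldolase; ENSMUSG00000025503, chr7:141392199-141402968, plus strand) measured 476, 351 and 758 CPM in CD8+ DCs and 124, 81.3 and 118 CPM in CD103+ DCs. Splenic CD4+ DCs held 232, 88.8 and 378 CPM, CD11b+ DCs 126, 87.3 and 134 CPM and monocytes 519, 616 and 572 CPM. The organs did not overlap in DC1, at -2.29 (SE 0.38, adjusted p = 7.74e-05), and overlapped in DC2, at -1.01 (SE 0.37, adjusted p = 0.0435). The DC2 call was lost with limma, with only the subtypes compared and in 9 of the 15 single-library omissions, among them every CD11b+ library and replicates 1 and 3 of CD4+ DCs, and without the last it was -0.47 (adjusted p = 0.323). CD8+ DCs were above CD4+ DCs at 1.18 (SE 0.37, adjusted p = 0.0230), with overlap, a call lost without replicate 1 or 2 of CD4+ DCs or replicate 3 of CD8+ DCs, and replicate 2 of CD4+ DCs was the lowest splenic library. Tkt (transketolase; ENSMUSG00000021957, chr14:30548359-30574722, plus strand) measured 459.8, 526 and 476 CPM in CD8+ DCs, 239.8, 218 and 210.5 CPM in CD103+ DCs, 484, 508 and 377 CPM in CD4+ DCs and 389, 342 and 232 CPM in CD11b+ DCs. Its organ effect was -1.13 (SE 0.20, adjusted p = 1.45e-04) in DC1 and -0.51 (SE 0.20, adjusted p = 0.0579) in DC2, and in monocytes it was higher (677, 841 and 765 CPM), at 0.69 (SE 0.17, adjusted p = 0.00220). Rpia (ribose-phosphate isomerase; ENSMUSG00000053604, chr6:70765720-70792232, minus strand) held 7.73, 4.60 and 4.32 CPM in CD4+ and 1.72, 2.34 and 2.43 CPM in CD11b+ DCs, at -1.38 (SE 0.45, adjusted p = 0.0238), on 460 counts in all libraries together. That call was lost without replicate 1 of CD4+ DCs (adjusted p = 0.112) and without replicate 1 or 2 of CD11b+ DCs (adjusted p = 0.0937 and 0.0508). Rpe (ribulose-phosphate epimerase; ENSMUSG00000026005, chr1:66700831-66719805, plus strand) held 99.8, 199 and 115 CPM in CD4+ and 75.9, 82.3 and 91.6 CPM in CD11b+ DCs, beside 89.7, 109 and 79.3 CPM in CD8+ and 63.0, 69.4 and 56.6 CPM in CD103+ DCs. It was lower in CD11b+ than in CD4+ DCs (-0.73, adjusted p = 0.0173) a call lost without replicate 1 of CD11b+ DCs or replicate 2 of CD4+ DCs (-0.37 without the latter, adjusted p = 0.150), and just missed the threshold in DC1 (-0.55, adjusted p = 0.0504).

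Shares of isoenzymes within a step removed the common level of the step. For 12 shares of summed TPM, organ labels of the 12 DC libraries were permuted within each lineage in a 2-sided exact permutation test (400 arrangements, smallest possible p = 0.005), with Benjamini-Hochberg adjustment over the 12. Of these, 9 passed between LN and splenic DCs, 8 of them at the smallest p (adjusted p = 0.0075). This test takes the lineages as independent, whereas same-numbered CD8+ and CD4+ libraries, and same-numbered CD103+ and CD11b+ libraries, deviated together. With same-numbered libraries of an organ moved together as a replicate block, an arrangement chosen after the data were seen, the exact permutation test has 20 arrangements and a smallest p of 0.1, so that 0 of the 12 shares could pass, and 11 of them stood at that p (adjusted p = 0.109). Eno1 made up 97.2%, 96.2% and 95.9% of both enolases in the CD8+ libraries and 35.0%, 31.8% and 28.2% in the CD103+ libraries. In DC2 its share was 97.7% ± 0.498 in spleen and 48.4% ± 2.50 in the LN, and the mean difference was -57.0 percentage points. Of the 50-base stretches of Eno1, 49.5% occur in another annotated gene, against 0.197% of those of Eno2. Reads within such stretches were not counted, so the Eno1 percentages leave them out, by an amount that was not measured. Eno3 is not in this family sum, and its own values stand with the other sugar enzymes below. Among hexokinases, Hk1 rose from 8.25% ± 1.70 to 65.1% ± 9.48 in DC1 and from 15.6% ± 6.67 to 46.3% ± 1.68 in DC2, a mean difference of 43.8 points. Hk2 fell by a mean of 28.5 points, from 31.9% ± 8.54 to 13.6% ± 7.06 in DC1 and from 78.3% ± 10.5 to 39.5% ± 3.93 in DC2. Shares of Hk3 (-15.3 points, adjusted p = 0.120), Pfkl (5.64 points, adjusted p = 0.147) and Pfkp (-0.461 points, adjusted p = 0.915) did not pass this exact permutation test. Its statistic averages the lineages, so shifts of opposite sign cancel and cannot be detected. The Pfkp share fell from 53.1% ± 3.49 to 42.7% ± 1.57 in DC1 and rose from 16.3% ± 1.64 to 25.8% ± 7.90 in DC2. The Hk3 share fell from 59.8% ± 9.96 to 21.3% ± 2.78 in DC1 and rose from 6.12% ± 3.90 to 14.1% ± 2.29 in DC2. In neither gene did the libraries of the organs overlap within a lineage.

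Slc16a3 made up 15.4% ± 5.41 of both lactate transporters in CD8+ DCs and 84.7% ± 9.42 in CD103+ DCs, with a mean difference of 47.5 points over both lineages. In CD4+ DCs its share was 74.4%, 21.7% and 75% in the 3 libraries, so that replicate 2 stood apart. Pfkfb3 rose from 84.7% ± 2.22 to 99.0% ± 0.722 of Pfkfb3 plus Pfkfb4 in DC1 and from 72.3% ± 7.07 to 97.3% ± 1.12 in DC2, by a mean of 19.6 points. Slc2a1 fell by a mean of 18.1 points among the 3 glucose transporters, of which Slc2a6 made up 97.9% ± 0.651 in CD103+ DCs, 35.7% ± 9.63 in CD8+ DCs and 83.4% ± 2.38 in monocytes. The shares of Aldoa (4.04 points) and Ldha (-2.96 points) moved less and also passed. The share of Pfkm fell by 5.18 points (exact p = 0.025, adjusted p = 0.0333). In 6 single-library omissions (replicate 3 of CD8+, 1 or 2 of CD4+, 1 or 2 of CD103+ and 3 of CD11b+ DCs) it missed the threshold of this exact permutation test (adjusted p = 0.0533 to 0.1), as the Ldha share did without replicate 1 of CD4+ DCs (adjusted p = 0.0525). Between monocytes and splenic DCs, 4 of 12 shares passed a 2-sided exact permutation test (84 arrangements), each at the smallest possible p of 0.0119 (adjusted p = 0.0357). Pfkfb3 fell by 64.3 points to 14.2% ± 2.61, Slc16a3 rose by 62.7 points to 98.9% ± 0.359, Ldha fell by 18.6 points to 80.6% ± 3.54, and Eno1 rose by 2.91 points to 100%. When any 1 library other than replicate 3 of CD4+ DCs was left out, these 4 shares missed the threshold (adjusted p = 0.0536 to 0.107 over these exact permutation tests), and every omission also raises the smallest p that the test can reach. At shares of counts in place of TPM, Slc16a3 missed the threshold (adjusted p = 0.0714).

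**Figure D5:**
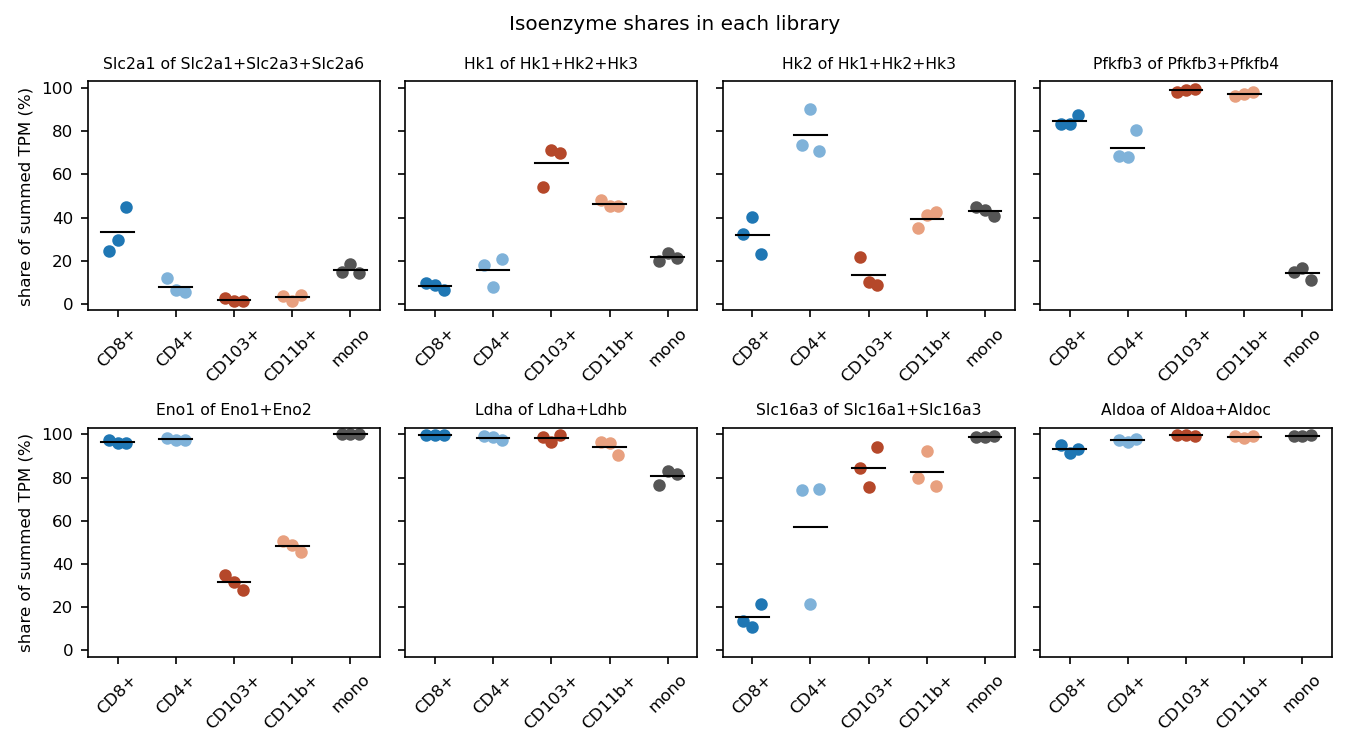
Share of 1 gene in the summed TPM of its isoenzyme family, in percent, for 8 of the 12 shares; points are libraries and black lines the means of 3. Eno1 drops below 51% in all LN DC libraries, Hk1 rises above 45% there, and Pfkfb3 is below 17% in monocytes only. The Eno1 share leaves out reads that also fit other genes.

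Genes around these pathways were counted from 3 lists. Of 23 tested genes of HIF regulation and HIF targets outside the 34, 7 (30.4%) were higher and 5 (21.7%) lower in CD103+ than in CD8+ DCs, beside 23.8% and 21.8% of all genes tested. In CD11b+ against CD4+ DCs 10 (43.5%) were higher and 2 (8.70%) lower, beside 19.3% and 13.8%. Adm (adrenomedullin) rose from 0.282 to 19.8 CPM in DC1 (6.04, adjusted p = 5.43e-08) and from 0.952 to 23.5 CPM in DC2 (4.63, adjusted p = 7.37e-07). P4ha2 (a collagen prolyl hydroxylase) had no count in any splenic library and reached 3.87 CPM in CD103+ DCs and 0.905 CPM in CD11b+ DCs. Ndrg1 in DC1 (2.94, adjusted p = 6.99e-07) and Vhl, the subunit that marks HIF for degradation, in DC2 (2.43, adjusted p = 8.93e-06) were higher as well. The lower genes, named here after their values were seen, were Mif, a cytokine (-1.42), Car9, a carbonic anhydrase (-1.29), Egln1, an oxygen sensor that marks HIF (-0.81), Higd1a (-0.80) and P4ha1 (-0.77) in DC1, and Ddit4, an inhibitor of mTOR (-2.30), and Higd1a (-1.07) in DC2. Epas1, the other oxygen-regulated HIF subunit, was detected in 1 library of each splenic DC subtype and reached 1.5 CPM in CD103+, 2.78 CPM in CD11b+ DCs and 1.34 CPM in monocytes. In monocytes 11 of the 23 (47.8%) were higher and 3 (13%) lower than in splenic DCs, beside 24.3% and 24.0% of all genes, among them Epas1, Ndrg1 (2.45), Ankrd37 (2.39) and Mxi1 (2.30), all higher, while Adm had a single count in the 3 libraries. Vegfa, the vascular growth factor, followed lineage, and was lower in DC1 in spleen (-3.29, adjusted p = 2.04e-04) and in LN (-4.31, adjusted p = 4.81e-05). In spleen 4 of the 23 (17.4%) were higher and 3 (13%) lower in CD8+ than in CD4+ DCs, beside 13.1% and 14.4% of all genes, with Plin2 (2.54), Bnip3 (1.43) and Vhl (1.29) higher and Ddit4 (-1.71) lower. In the LN 1 was higher in CD103+ DCs (Ndrg1, 1.58) and 2 were lower, together 13% beside 12.9% of all genes. By the interaction test, the signed log2 fold change of LN over spleen was lower in DC1 than in DC2 for 3 and higher for 0. Together these were 13% beside 11.2% of all genes, with differences of -2.09 for Plin2, -1.77 for Bnip3 and -1.06 for P4ha1.

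Of 35 tested genes of other sugar and pyruvate enzymes, 4 were higher and 10 lower in CD103+ than in CD8+ DCs, together 40% beside 45.6% of all genes tested. In DC2 1 was higher and 5 were lower, together 17.1% beside 33.1%, a smaller share than over all genes. In monocytes 12 were higher and 6 lower, together 51.4% beside 48.2%. Eno3, the muscle enolase, was higher in LN DCs like Eno2, and measured 22.5, 55.3, 646, 364 and 92.6 CPM on average in CD8+, CD4+, CD103+, CD11b+ DCs and monocytes, with organ effects of 4.84 (SE 0.30, adjusted p = 5.79e-10) and 2.72 (SE 0.27, adjusted p = 3.88e-07). In DC1, Khk (ketohexokinase, -3.45), Adpgk (ADP-dependent glucokinase, -2.68) and Galk1 (galactokinase, -1.89) were lower in the LN and Pygl (glycogen phosphorylase, 3.03) higher. In DC2 the other genes past a log2 fold change of 1 were Prps2 (-1.47), which makes the ribose donor of nucleotides, and Pdp1 (-1.18). In monocytes Pygl (3.38), Slc2a9 (2.51), Pgam2 (2.35) and H6pd (1.84), the hexose dehydrogenase of the endoplasmic reticulum, were higher, and Pfkfb1 (-1.82) lower. Between CD8+ and CD4+ DCs 6 of the 35 were higher and 7 lower, together 37.1% beside 27.4% of all genes, with Pygl (-3.75) lower and Pgam2 (3.11), Khk (2.04), Adpgk (1.60) and Bpgm (1.31) higher. Between CD103+ and CD11b+ DCs 2 were higher and 5 lower, together 20% beside 12.9% of all genes, and the organ effect differed between lineages for 5, or 14.3% beside 11.2%.

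Of 11 tested regulators of sugar metabolism, 2 were higher and 4 lower in LN DCs in each lineage, together 54.5% beside 45.6% of all genes in DC1 and 33.1% in DC2, and 4 were higher and 4 lower in monocytes, together 72.7% beside 48.2%. Mycl, a Myc family factor of DCs, was lower in LN DCs (-4.04 and -2.05) and, at 2.84 CPM beside 485 and 100.2 CPM in CD8+ and CD4+ DCs, in monocytes. Rptor, the scaffold of an mTOR complex, was higher in LN DCs (2.42 and 1.78), and Txnip, an inhibitor of glucose uptake, was lower (-1.18 and -1.89), as was Trp53 (-1.30 and -1.08). Myc in DC1 (-1.34) and Tfeb in DC2 (-1.22) were also lower. In monocytes Nfe2l2, the factor that drives several NADPH-making enzymes, was higher (2.47), at 244 CPM against 38.9 and 49.6 CPM in CD8+ and CD4+ DCs, and Myc (-2.02) and Mtor (-1.07) were lower. Between CD8+ and CD4+ DCs 1 was higher (Mycl, 2.27) and 2 were lower (Tfeb, -1.99, and Txnip, -1.28), together 27.3% beside 27.4% of all genes. The organ effect differed between lineages for Mycl (-1.99) and Tfeb (1.63), together 18.2% beside 11.2% of all genes. Between the LN subtypes 0 of the 11 passed in edgeR, beside 12.9% of all genes, and 3 had an unadjusted p under 0.05 there. In DESeq2 0 passed and in limma 1.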

How the data were processed

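RNA of sorted mouse DCs and monocytes was sequenced by the authors as poly(A) cDNA on an Ion Torrent instrument, mapped to mm10 with STAR 2.4.0j and counted per Ensembl gene with featureCounts (Subread 1.5.2), without strand, for uniquely mapped reads, with a read counted for each gene it overlaps. The deposited counts per gene are whole, and the deposited TPM values were computed by the authors from counts and exon length. The exon lengths and other gene columns deposited with the counts gave mm10 positions, and 18 columns of counts by sequencing run were not used. CPM were computed from the deposited counts with TMM factors (0.8832 to 1.10). The main test was edgeR 4.0.16 (R 4.3.3), a quasi-likelihood test with 1 mean per subtype over all 15 libraries (10 residual degrees of freedom), on 14456 genes above 1 CPM in at least 3 libraries, with Benjamini-Hochberg adjustment over all of them and a threshold of 0.05. The script was tested on simulated data.

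Alternatives were DESeq2 1.42.0, RLE size factors, other filters, limma 3.58.1 with trend on log2(TPM + 1), only the subtypes compared, a replicate block, and each library left out. Added after the data were seen was a permutation of the isoenzyme shares with same-numbered libraries of an organ moved together. Same-numbered libraries deviated together between CD8+ and CD4+ DCs (r over genes 0.162 to 0.375), LN CD103+ and CD11b+ DCs (0.179 to 0.259) and LN CD11b+ and splenic CD4+ DCs (0.197 to 0.266), and not between LN CD103+ and splenic CD8+ DCs (0.0374 to 0.0860) or monocytes and DCs (-0.0310 to 0.0384). The labels do not say what a number shares. Members and gene lists were chosen with earlier results of these data known. Every member is named, and full statistics are given where a called absolute log2 fold change was at least 1 with no overlap of libraries, or where isoenzyme shares passed. Of other lists at most 5 called genes per comparison are named, apart from the lower HIF genes named after their values were seen. A gene that this rule would name is not reported here. Depth was 4531243 to 10233914 counts. Replicates are pools of mice, so p-values measure the spread between pools. Shared 50-base stretches were counted over the annotated mm10 exons. Python 3.11.15 with scipy 1.17.1 ran the exact permutation tests.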

Additional observations from a re-analysis of the deposited data

Results flagged for a closer look

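The organ effect differed between the DC lineages by the interaction test (edgeR, adjusted over all genes tested) for 6 of the 34 genes. The values are the log2 fold change of LN CD103+ over splenic CD8+ DCs minus that of LN CD11b+ over splenic CD4+ DCs. Slc2a6 (2.348, adjusted p = 0.000219) and Pfkfb3 (1.126, adjusted p = 0.0160) rose more in the DC1 pair. Hk3 (-3.705, adjusted p = 0.000136) and Aldoc (-2.741, adjusted p = 0.00125) were lower in the LN in DC1 and passed no organ test in DC2. Pfkp (-1.765, adjusted p = 0.00339) had effects of opposite sign, each past its own test. Ldha (-1.454, adjusted p = 0.0213) was lower in the LN in both pairs and by more in DC1.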

How the results depend on the processing

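Over the 6 comparisons of subtypes, 65 of 90 calls of the 34 genes held in each of the 22 alternatives, and 8 were lost in 8 or more of them. No called direction was reversed under the alternatives run, and 56 of the 61 pairs of gene and comparison with full statistics kept call and direction. The 5 that lost the call in some alternative were Ldhb and Rpia in CD11b+ against CD4+ DCs, Pfkfb3 and Ldha in the interaction, and Slc2a3 between LN subtypes. With only the subtypes compared, 10 genes in place of 16 passed in CD11b+ against CD4+ DCs. With same-numbered libraries of an organ moved together (replicate block, chosen after the data were seen), 0 isoenzyme shares in place of 9 passed between organs, as the smallest p is then 0.1. The replicate block gave 10 in place of 6 for the interaction, gained 2 or 3 genes in the other comparisons of subtypes and lost none. When 1 library was left out, the genes called ranged from 16 to 21 in DC1 organ, 10 to 18 in DC2 organ, 5 to 8 in the interaction, 12 to 19 between splenic DCs, 3 to 8 between LN DCs, 23 to 27 in monocytes and 29 to 31 over the 5 subtypes, and the shares that passed from 7 to 10 between organs and 0 to 5 in monocytes. The summed level over the mean of all libraries, by TPM, ranged over these omissions from 0.955 to 1.06 in CD8+, 0.724 to 0.788 in CD4+, 0.872 to 0.934 in CD103+ and 0.754 to 0.818 in CD11b+ DCs, and from 1.54 to 1.65 in monocytes. By summed CPM it was 1.12 in CD103+ DCs, 0.870 in CD11b+ DCs and 1.38 in monocytes, and by centred log2 CPM it was 0.801 in CD4+, 0.838 in CD103+ and 0.891 in CD11b+ DCs and 1.47 in monocytes. The cause of these shifts was not tested. Depth limits Slc16a1, Pfkm and Rpia, with 390, 393 and 460 counts over all libraries. Gapdh, Pgk1, Eno1 and Pgam1 are the most limited by reads shared with copies elsewhere. Smaller shares of 50-base stretches also occur in another annotated gene for Gpi1 (24.45%), Pkm (23.7%), Ldhb (21.0%) and Rpe (18.7%). For Pfkp the share is 15.4%, for Taldo1 10.7%, for G6pdx 10.5% and for Ldha 10.4%. How far this lowered the levels of these genes was not tested.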
